A study of Schmidtea mediterranea with 36 samples.

Results

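The planarian transcripts *titin* and *LOXL2* lay on opposite sides of their controls in tail fragments after knockdown of the homeobox gene *alx-3*. They are the only 2 transcripts, 1 row each, whose IDs hold either name in full, among 71232 transcripts listed in at least 1 table of the series. Both were picked because earlier results from these same libraries had already shown them to differ, so every comparison of them below between RNAi groups or over time is a description and carries no test. The *titin* ID (Smed-titin_dd_Smed_v6_13910_0_1_SmedASXL_004893_SmedASXL_054686) joins a pair of numbers of the Smed_ASXL transcriptome, and its value may cover both. The *LOXL2* ID is Smed-LOXL2_SmedASXL_017412. That these are a titin and a LOXL2 rests on the names in the IDs alone.

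Titin is the giant protein of striated muscle in vertebrates that spans the sarcomere as an elastic spring and scaffold, and invertebrate muscles hold shorter relatives of it. LOXL2 belongs to the lysyl oxidases, secreted copper enzymes that in mammals oxidise lysines of collagen and elastin so that the fibres of the extracellular matrix become cross-linked. Planarian muscle is known both as the main source of matrix proteins in the body and as the tissue that expresses position control genes, the secreted signals and receptors that tell cells where along the body axes they lie.

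The animals were asexual *Schmidtea mediterranea* of strain CIW4. *alx-3(RNAi)* animals received 9 feedings of *alx-3* dsRNA, and *control(RNAi)* animals received 9 feedings of dsRNA against *GFP*, a gene that planarians lack. Worms were cut behind the pharynx, and RNA was taken from whole tail fragments at 5 times, 0.5, 6, 24, 48 or 72 hours post-amputation (HPA), or from uncut whole animals ("intact"). Each of the 12 groups held 3 libraries, prepared with poly(A) selection. In *alx-3(RNAi)* libraries the *alx-3* transcript was at 23.6% to 40.8% of the *control(RNAi)* mean over the 6 times, with no overlap between groups (two-sided exact permutation p = 0.1 at each, the smallest that 3 against 3 allows). Summed normalized counts ran from 50.9 to 70.9 M per library. They were higher in every *alx-3(RNAi)* library than in any *control(RNAi)* library of the same time, except at 48 HPA, where the groups overlapped. At 72 HPA the sums ran from 60.3 to 67.2 M in *alx-3(RNAi)* tails and from 54.5 to 56.8 M in *control(RNAi)* tails. RNA came from all cells of a fragment, so fewer cells of a type and less RNA per cell cannot be told apart. Of the defining muscle markers searched for (collagens, myosins, troponins, tropomyosin and others), the IDs name FoxF1 alone, so the muscle content of the libraries was not measured here.

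All levels are normalized counts, which are reads per transcript scaled by library within a time point and not divided by transcript length. At 0.5 HPA *titin* stood at 353, 380.2 and 285 normalized counts in the *alx-3(RNAi)* tails, against 772, 613 and 894 in *control(RNAi)* tails. The highest knockdown library was thus well below the lowest control. At 6 HPA, the time of the highest *titin* level in both groups, *alx-3(RNAi)* tails had 307, 679.7 and 558 normalized counts, and *control(RNAi)* tails had 1530.4, 1180.5 and 1519. The groups were again apart, although the knockdown libraries differed among themselves by more than 2-fold. At 24 HPA the values were 193, 184 and 361 in *alx-3(RNAi)* tails and 603, 515 and 717 in *control(RNAi)* tails, with a clear gap between them.

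The ranges of the groups overlapped at 48 HPA. There *titin* had 263, 199 and 376 normalized counts in *alx-3(RNAi)* tails and 764, 284 and 489 in *control(RNAi)* tails, and control replicate 2 fell inside the knockdown range. At 72 HPA *alx-3(RNAi)* tails had 168, 182 and 235 normalized counts and *control(RNAi)* tails 369, 368 and 621, with no overlap. Knockdown tails therefore lay wholly below controls at 4 of the 5 tail times. Such separation was found for 8.53%, 8.67%, 12.6%, 8.98% and 11.3% of all tested transcripts at the 5 tail times in order, and 1.3% of the 28477 transcripts tested at every tail time showed it at 4 or more of them.

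Expressed against the control mean, *titin* stood at 44.7%, 36.5%, 40.2%, 54.5% and 43.0% in *alx-3(RNAi)* tails over the 5 tail times in order. On the log2(normalized count + 1) scale, the differences between the *alx-3(RNAi)* and *control(RNAi)* groups were −1.15 (SE 0.142), −1.52 (SE 0.223), −1.37 (SE 0.217), −0.81 (SE 0.275) and −1.18 (SE 0.179) in the same order. The smallest of them, at 48 HPA, depended on single libraries: it was −0.46 without control replicate 1, and −1.18 without control replicate 2.

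**Figure D1:**
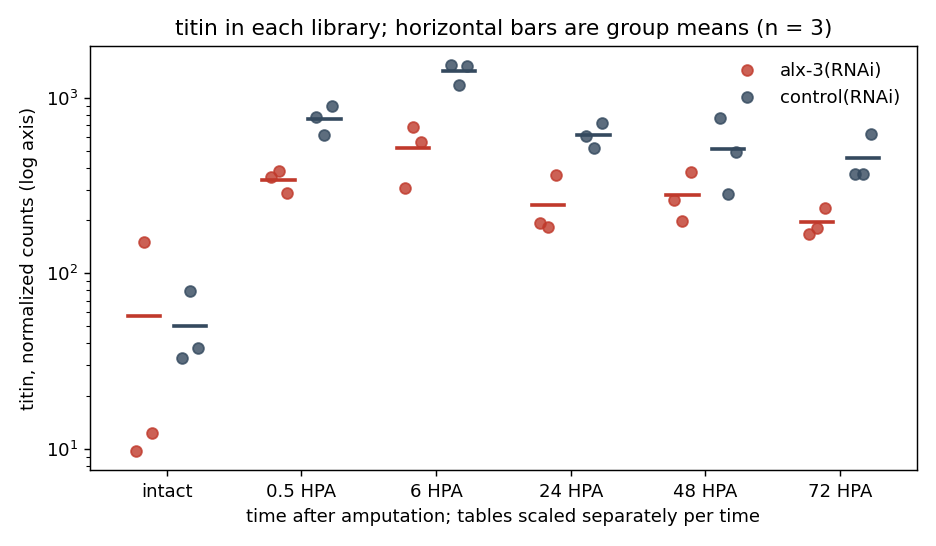
*titin* normalized counts in each library (log axis) at the 6 times, with *alx-3(RNAi)* (red) to the left of *control(RNAi)* (dark grey) and horizontal bars at the means of 3 libraries. Knockdown tails lie below control tails at every tail time except 48 HPA, where 1 control at 284 lies among them, and the intact libraries spread between 9.75 and 150.0.

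*LOXL2* lay on the other side of its controls at every tail time. At 0.5 HPA it had 1141, 856 and 1033 normalized counts in *alx-3(RNAi)* tails, against 726, 833 and 610.0 in *control(RNAi)* tails. The groups were close to touching, with 856 the lowest knockdown value and 833 the highest control. At 6 HPA *alx-3(RNAi)* tails had 1167, 836 and 990.1 normalized counts and *control(RNAi)* tails 638, 609 and 699.5, and the groups stood further apart.

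The *LOXL2* group means stood furthest apart at 24 HPA, with 1118, 855 and 955 normalized counts in *alx-3(RNAi)* tails and 624, 583 and 532 in *control(RNAi)* tails. At 48 HPA the values were 1135, 943 and 965 in *alx-3(RNAi)* tails, against 576, 669 and 708 in *control(RNAi)* tails. At 72 HPA they were 1044, 963 and 947 in *alx-3(RNAi)* tails, against 693, 746 and 783 in *control(RNAi)* tails. As deposited, all 15 knockdown tails were hence above the controls of their own time. As a share of the summed counts, the groups overlapped at 72 HPA, where the lowest knockdown library had 14.1 CPM (counts per M of its sum) and the highest control 14.4 CPM, and the log2 difference there was 0.20 with each library rescaled to one total. Separation in this direction was found for 13.2%, 14.5%, 13.5%, 13% and 19.3% of tested transcripts at these times, and for 3.12% of the 28477 at all 5 of them. By the means alone, 19.6% of transcripts were higher at all 5 tail times, as *LOXL2* was, and 12.3% were lower at all 5, as *titin* was.

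In percent of the control mean, *LOXL2* in *alx-3(RNAi)* tails was 140%, 154%, 168%, 156% and 133% over the same 5 times. The log2 differences between *alx-3(RNAi)* and *control(RNAi)* tails were 0.48 (SE 0.125), 0.61 (SE 0.117), 0.74 (SE 0.100), 0.64 (SE 0.121) and 0.41 (SE 0.0839) in that order. These are smaller than those of *titin* in size, and their standard errors are smaller too. *alx-3(RNAi)* replicate 1 gave the highest *LOXL2* value at each of the 5 tail times, but the labels do not say that a replicate number marks the same animals or batch across times.

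**Figure D2:**
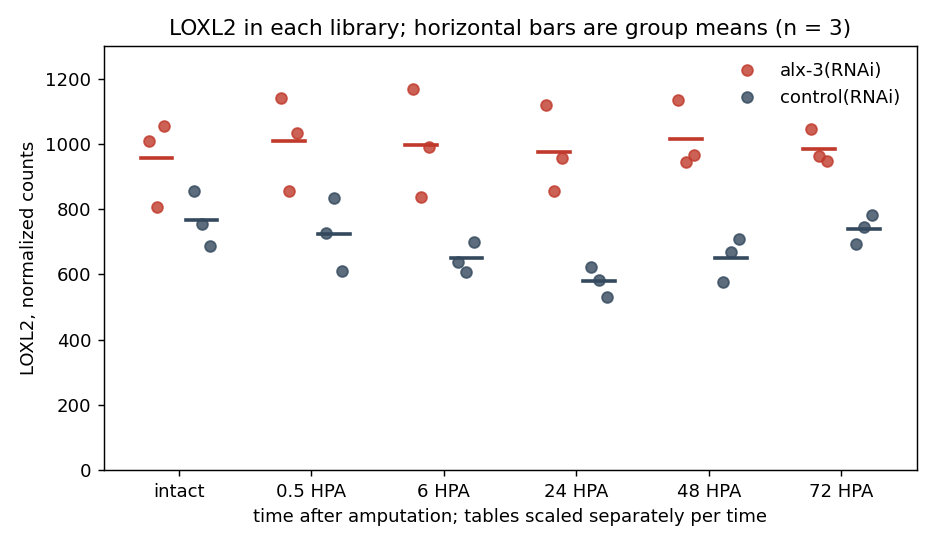
*LOXL2* normalized counts in each library at the 6 times, with *alx-3(RNAi)* (red) left of *control(RNAi)* (dark grey) and bars at the means of 3 libraries. As deposited, where the times are scaled apart, the knockdown means stay between 957 and 1014, and the lowest control mean is 579.8 at 24 HPA. On the common scale the lowest control mean was 612 at 48 HPA, against 617 at 24 HPA.

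In intact animals the *titin* values were scattered rather than shifted. They were 9.75, 150.0 and 12.3 normalized counts in *alx-3(RNAi)* animals, against 32.9, 79.7 and 37.4 in *control(RNAi)* animals. Replicate 2 of the knockdown was above every control and the other 2 were below every control; 9.31% of tested transcripts had all 3 knockdown libraries below all controls in intact animals. The log2 difference was −0.76 (SE 0.799), and it was −1.98 without *alx-3(RNAi)* replicate 2. The arithmetic mean of *alx-3(RNAi)* was 115% of that of controls, so mean and log2 difference point in opposite directions here.

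Intact *LOXL2* was at 1009, 807 and 1054 normalized counts in *alx-3(RNAi)* animals and at 855, 755 and 686 in *control(RNAi)* animals. The ranges overlapped through knockdown replicate 2, the library that stood apart in *titin*. The log2 difference was 0.32 (SE 0.118).

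**Figure D3:**
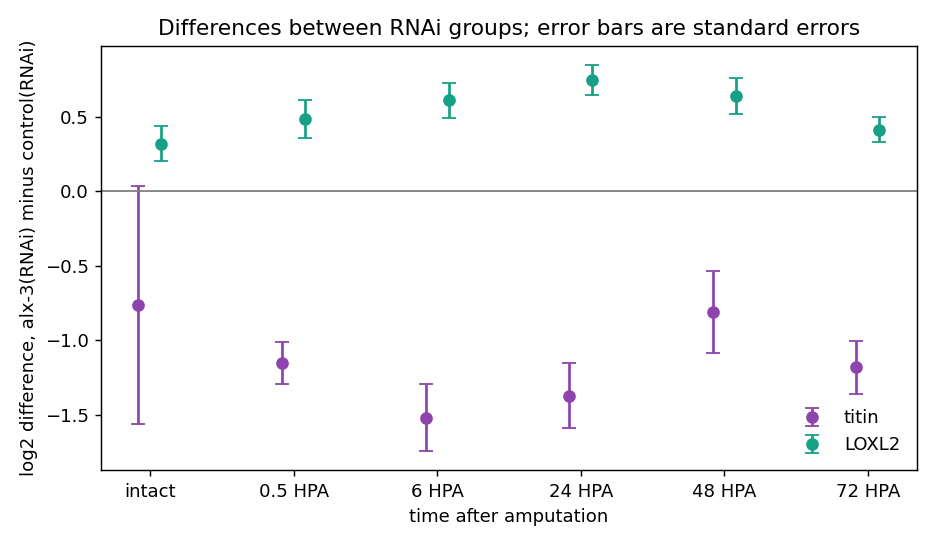
Log2 differences between *alx-3(RNAi)* and *control(RNAi)* groups for *titin* (purple) and *LOXL2* (green) at the 6 times, with bars of 1 standard error. The *titin* points lie between −1.52 and −0.76 with the widest bar in intact animals, and the *LOXL2* points lie between 0.32 and 0.74.

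The control libraries alone give the course of each transcript around amputation. For this the 6 tables, which were scaled separately, were put on a common scale through the 38706 transcripts above 0 in all 36 libraries. No test was made across tables. On the common scale *titin* averaged 48.7 ± 25.2 normalized counts in intact *control(RNAi)* animals, 771 ± 144 at 0.5 HPA, 1400.3 ± 204 at 6 HPA, 651 ± 108 at 24 HPA, 483 ± 233 at 48 HPA and 430.0 ± 138 at 72 HPA (SD, n = 3). The ranges of the 0.5 and 6 HPA libraries did not overlap, nor did those of 6 and 24 HPA. From 24 to 48 HPA and from 48 to 72 HPA, neighbouring ranges overlapped.

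*titin* in *control(RNAi)* tails at 0.5 and 6 HPA was therefore 15.9-fold and 28.8-fold above intact *control(RNAi)* animals. Of 27959 transcripts tested at all 6 times, 5 at 0.5 HPA and 4 at 6 HPA were at least as far above intact, *titin* included. In *alx-3(RNAi)* the tails at 0.5 and 6 HPA were 6.27-fold and 9.23-fold above intact *alx-3(RNAi)* animals, figures that rest on an intact mean carried by 1 library. Amputation and the body region sampled changed together between intact animals and tail fragments, so the parts they play in this step cannot be told apart. From 0.5 to 6 HPA, where tissue is the same, *titin* in *control(RNAi)* tails was 1.82-fold higher at the later time, and 395 of the 27959 transcripts were up by at least as much, *titin* included. In *alx-3(RNAi)* tails the 6 HPA mean was 1.47-fold that at 0.5 HPA, with overlapping ranges.

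*LOXL2* moved little over the same course. On the common scale its *control(RNAi)* mean was 744 ± 79.8 normalized counts in intact animals, 734 ± 112 at 0.5 HPA, 644 ± 47.7 at 6 HPA, 617 ± 48.3 at 24 HPA, 612 ± 55.3 at 48 HPA and 703 ± 42.5 at 72 HPA (SD, n = 3). The 24 and 48 HPA ranges lay below the intact range, and the 72 HPA range lay above that of 48 HPA. As deposited, where the time points are scaled apart, the 48 HPA range overlapped those of intact animals and of 72 HPA. *alx-3(RNAi)* means on the common scale ran between 914 and 1030.1 over the 6 times, and each tail time overlapped intact animals. The log2 difference of *LOXL2* was largest at 24 HPA. There the common-scale knockdown mean was the highest of the 6 times (1030.1), and the control mean (617) was close to its lowest (612 at 48 HPA). In a joint fit over the tail libraries, the log2 difference was larger at 24 HPA than at 0.5 HPA by 0.26 (95% interval −0.10 to 0.62). Against 6 HPA the figure was 0.14 (−0.22 to 0.49). Both intervals include no change, so widening among these tail times was not resolved. Against intact animals the figure was 0.43 (0.06 to 0.80) in one fit over all libraries, but there the body region differed too. The 24 HPA time was picked for its largest difference, so this interval carries no test. At 0.5 and 6 HPA the figures against intact animals were 0.17 (−0.21 to 0.54) and 0.29 (−0.08 to 0.66). At 48 and 72 HPA they were 0.32 (−0.05 to 0.69) and 0.09 (−0.28 to 0.46). All intervals against intact animals but that at 24 HPA include no change.

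Ordered by their common-scale means, the 12 groups gave *titin* 3 steps: both intact groups, then the 9 groups of tails from *alx-3(RNAi)* at 72 HPA (185) to *control(RNAi)* at 0.5 HPA (771), then *control(RNAi)* at 6 HPA. Neighbours in this order overlapped in range except at those 2 breaks. For *LOXL2* every neighbouring pair of groups overlapped, and all 6 *control(RNAi)* means came below all 6 *alx-3(RNAi)* means.

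Libraries that were high in *titin* were also high in other transcripts. Deviations of log2 values from the mean of the 6 libraries of a time were compared over the 36 libraries. All points come from the same 6 tables, and the knockdown itself is part of every deviation, so these values of Pearson's r describe likeness only. Among 246 named transcripts, those nearest to *titin* were kismet (r = 0.82), a chromatin remodeller in flies, Mitf1 (0.79), AK1 (0.78), NF1 (0.78), which in mammals restrains Ras, and a spondin (SmedASXL_017661, 0.76), named as a secreted matrix protein. The farthest were nhr-22 (−0.78), named as a nuclear hormone receptor, *LOXL2* itself (−0.75) and cathepsin L-1-2 (−0.74), named as a lysosomal protease. After group means were removed, which takes out the mean knockdown effect, r with *titin* was 0.85 for kismet, 0.67 for the spondin and −0.48 for *LOXL2* over the 36 libraries. Over the 30 tail libraries alone these were 0.50, 0.36 and −0.39, so the 2 positive ones rest in part on the widely spread intact libraries. Mitf1 (0.88 over the 36 libraries and 0.43 over the tails) and NF1 (0.84 and 0.47) fell likewise, but AK1 did not (0.65 and 0.71). On the same bases r was −0.57 and −0.51 for nhr-22, and −0.44 and −0.34 for cathepsin L-1-2.

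*LOXL2* had many more transcripts of like pattern. Of 27958 transcripts, 1491 reached r of at least 0.8 with *LOXL2* and 72 reached it with *titin*. The nearest named ones to *LOXL2* were cathepsin L-1-2 (r = 0.93), ALAS (0.92), the first enzyme of haem and porphyrin synthesis, activin (0.92), a TGF-β family ligand, KMO-1 (0.92), an enzyme of the kynurenine route to ommochrome pigment, and nhr-22 (0.91). The farthest were nhr-14 (−0.86), *alx-3* (−0.85) and AK1 (−0.81). With group means removed, r was 0.82 for cathepsin L-1-2, 0.87 for activin and −0.14 for *alx-3* over the 36 libraries, and 0.81, 0.85 and −0.17 over the 30 tail libraries.

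Activin had 3847, 3199.8 and 3202 normalized counts in *alx-3(RNAi)* tails at 72 HPA, against 1609, 1786 and 1678 in *control(RNAi)* tails. Its mean in knockdown was 140%, 142%, 144%, 175%, 156% and 202% of the control mean in intact animals and then at the 5 tail times in order, with no overlap at any time. ALAS stood at 161%, 149%, 143%, 174%, 175% and 168% in the same order and likewise did not overlap. ALAS passed the threshold of limma (Benjamini-Hochberg adjusted p under 0.05) at all 6 times, and activin at 4 of them, namely 0.5, 24, 48 and 72 HPA. These transcripts were selected for their likeness to *LOXL2*, and the calls repeat what selected them.

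The spondin nearest to *titin* had 22204, 31913 and 27688 normalized counts in *alx-3(RNAi)* tails at 72 HPA and 40227, 42818 and 39218 in *control(RNAi)* tails. At 24 HPA it had 35069.8, 25161 and 31205 in *alx-3(RNAi)* tails and 41358, 42046 and 39017 in *control(RNAi)* tails. Both pairs of groups were apart, with knockdown means at 66.9% and 74.7% of control means, while at 0.5, 6 and 48 HPA and in intact animals the ranges overlapped. Over the control course its mean as deposited was 7732 normalized counts in intact animals, 17086 at 0.5 HPA, 26543 at 6 HPA and 40807 at 24 HPA, so unlike *titin* it had not turned down by 24 HPA.

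The matrix list drawn up for this report, 9 named transcripts of which 8 are spondins and 1 a mucin, had no member called higher in *alx-3(RNAi)* at any time by limma, and at most 1 reached an unadjusted p under 0.05 in that direction. Called lower were 0 of 8 tested in intact animals, 1 of 8 at 0.5 HPA, 0 of 8 at 6 HPA, 2 of 8 at 24 HPA, 3 of 8 at 48 HPA and 2 of 6 at 72 HPA. Over all tested transcripts 0.501%, 0.794%, 0.621%, 3.01%, 1.11% and 2.62% were called lower at these times. The median log2 difference of the list was −0.26, −0.45, −0.75, −0.29, −0.62 and −0.38, against medians between 0.00 and 0.01 over all tested transcripts. The spondin SmedASXL_017661 was lower by limma at 24 HPA (log2 difference −0.43, SE 0.0965, adjusted p = 0.0199) and at 72 HPA (−0.59, SE 0.0956, adjusted p = 0.00085). It was named above for its likeness to *titin*, knockdown effect included, so these calls, which are among the counts of the list, in part repeat what selected it. The counts lower rest on single libraries. At 24 HPA 0 were called when any 1 of the 3 controls was left out, at 0.5 HPA 0 without *alx-3(RNAi)* replicate 1 or 3 or control replicate 2 or 3 and 4 without control replicate 1, and at 6 HPA 3 without *alx-3(RNAi)* replicate 3. Without *alx-3(RNAi)* replicate 2, 4 were called lower and 1 higher in intact animals. At 72 HPA the count was 1 without *alx-3(RNAi)* replicate 1 or 3 or control replicate 2 or 3. No other lysyl oxidase, and no collagen, laminin or matrix metalloproteinase, is named in the IDs.

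The position control genes, 14 of which are named and tested, had no member called in intact animals or at 0.5 and 6 HPA, where 7, 2 and 3 had an unadjusted p under 0.05. Without *alx-3(RNAi)* replicate 2, 2 were called higher and 5 lower in intact animals, and without control replicate 1, 3 were called lower at 0.5 HPA. At 24 HPA 3 were lower, the Wnt inhibitor notum and the ligands wnt1 and wntP-3. At 48 HPA 3 were higher (sp5, wnt11-1 and Fzd-d) and 1 lower (wnt2-1), a call lost without any 1 of the *alx-3(RNAi)* libraries, whereas 4 were lower without control replicate 1. At 72 HPA 5 were higher, those of 48 HPA with teashirt and wntP-2, and 4 were lower, notum, ndk, sfrp-1 and wnt2-1. Over all tested transcripts 3.01%, 1.11% and 2.62% were called lower at 24, 48 and 72 HPA, and 4.28%, 2.36% and 10.5% were called higher. At 24 HPA 0 members of the list were called higher, and 0 had an unadjusted p under 0.05 in that direction. notum averaged 121 ± 10.5 normalized counts in *alx-3(RNAi)* tails at 72 HPA and 329 ± 125 in *control(RNAi)* tails (SD, n = 3), with a log2 difference of −1.36 (SE 0.219, adjusted p = 0.000846). sp5, a transcription factor of posterior Wnt signalling, averaged 1601 ± 205 in *alx-3(RNAi)* tails and 875 ± 182 in *control(RNAi)* tails (log2 difference 0.88, SE 0.123, adjusted p = 0.00027). The direction within the list thus differed between its members.

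Lists for other cell types were counted in the same way. ALAS, KMO-1 and cathepsin L-1-2 were picked above for their likeness to *LOXL2*, and all are on the cathepsin and pigment cell list. Their calls repeat what selected them, so the counts of that list are no separate evidence on *LOXL2*. Of the 7 members of that list 1, 3, 3, 4, 3 and 6 were called higher in *alx-3(RNAi)* in intact animals and at the 5 tail times in order. None was called lower, but 2 were at 0.5 HPA and 1 at 24 HPA when libraries were rescaled to one total, and 1 at most had an unadjusted p under 0.05 in that direction at any time. Without *alx-3(RNAi)* replicate 1 the count higher was 0 in intact animals and at 6 HPA and 1 at 48 HPA, and with rescaling to one total it was 3 at 72 HPA. Over all tested transcripts 0.384%, 1.24%, 1.72%, 4.28%, 2.36% and 10.5% were called higher. Of 6 epidermal progeny markers 2, 2, 3, 3, 2 and 6 were higher and 0 lower in the same order, but at 72 HPA 1 was higher with rescaling to one total, and 2 with quantile normalization or without control replicate 3. Of 9 neoblast (stem cell) markers at most 2 were called higher and at most 1 lower at any time, although 6 were lower at 72 HPA with rescaling to one total. With an unadjusted limma p under 0.05, 4, 5, 7, 1, 2 and 2 of them were higher in intact animals and at the 5 tail times in order. In the other direction these counts were 0, 0, 1, 2, 1 and 1. FoxF1, the 1 named marker on the muscle list, also stands on the cathepsin list and was called higher at 72 HPA alone, as was the gut marker NXK2.2, and both calls were lost with rescaling to one total. Of 2 neuronal markers COE was called lower at 24 HPA, a call lost without any 1 of the controls. No pharynx or protonephridia marker is named. The part of any shift in cell types in the *LOXL2* difference was not tested.

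A library-wide pattern ran beside *titin* and, in the opposite direction, beside *LOXL2*. The library of intact *alx-3(RNAi)* replicate 2, with 150.0 normalized counts of *titin*, was also the outlying one of its group in the 200 transcripts most enriched in tails over intact animals (median deviation 0.64, against −0.62 and −0.68 in replicates 1 and 3). These intact libraries were among those used to pick the set. Transcripts low in replicates 1 and 3 were thus favoured, and that gap is in part fixed by the choice. Replicate 2 was likewise outlying in 12 named genes known in other animals to encode very large proteins, as titin does (0.33, against −0.40 and −0.48). NF1, for example, had 2953, 6303 and 2828 normalized counts in intact *alx-3(RNAi)* animals and 5855, 5995 and 5919.7 in intact *control(RNAi)* animals. Med12, a subunit of the Mediator complex, had 645, 2734 and 669 in intact *alx-3(RNAi)* animals and 2171, 2893 and 2431 in intact *control(RNAi)* animals. In both, replicates 1 and 3 of the knockdown were low and replicate 2 was close to or above the controls.

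In tails the 12 large-protein genes differed less than *titin*, which had been picked for its difference, so their smaller values carry no weight as a comparison. The 12 include kismet and NF1, both named above as near to *titin*, so the likeness of the set to *titin* is in part built in. The median log2 difference of the 12 between *alx-3(RNAi)* and *control(RNAi)* was −0.09, −0.03, −0.12, −0.15 and −0.19 over the 5 tail times in order, with 12, 9, 12, 11 and 11 of 12 below 0, and −0.35 in intact animals. Of all tested transcripts 48.2%, 48.1%, 49.5%, 49.2% and 49.3% were below 0 at these tail times. Those of the 12 called lower numbered 2 at 24 HPA and 2 at 72 HPA, against 3.01% and 2.62% of all tested transcripts. Over the control course as deposited they moved little, and their median log2 ratio to intact *control(RNAi)* animals was −0.02 at 0.5 HPA (from −0.35 to 0.63) and 0.08 at 6 HPA (from −0.42 to 0.61). *titin* deviations had an r of 0.64 with the median of these genes over the 30 tail libraries and of 0.15 once group means were removed. With the 200 tail-enriched transcripts r was 0.85 and 0.55 on the same 2 bases. The measure planned beforehand was the 200 transcripts most enriched in intact controls over control tails. With it r was −0.03 and −0.23 on these bases for *titin*, and −0.16 and 0.01 for *LOXL2*. *LOXL2* deviations ran the other way over the 30 tail libraries (r −0.73 with the tail-enriched set, −0.67 with the large-protein genes). Once group means were removed, these values were −0.20 and −0.12. Transcript lengths were not used here, and the part of length or RNA quality in the *titin* and *LOXL2* differences was not tested.

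**Figure D4:**
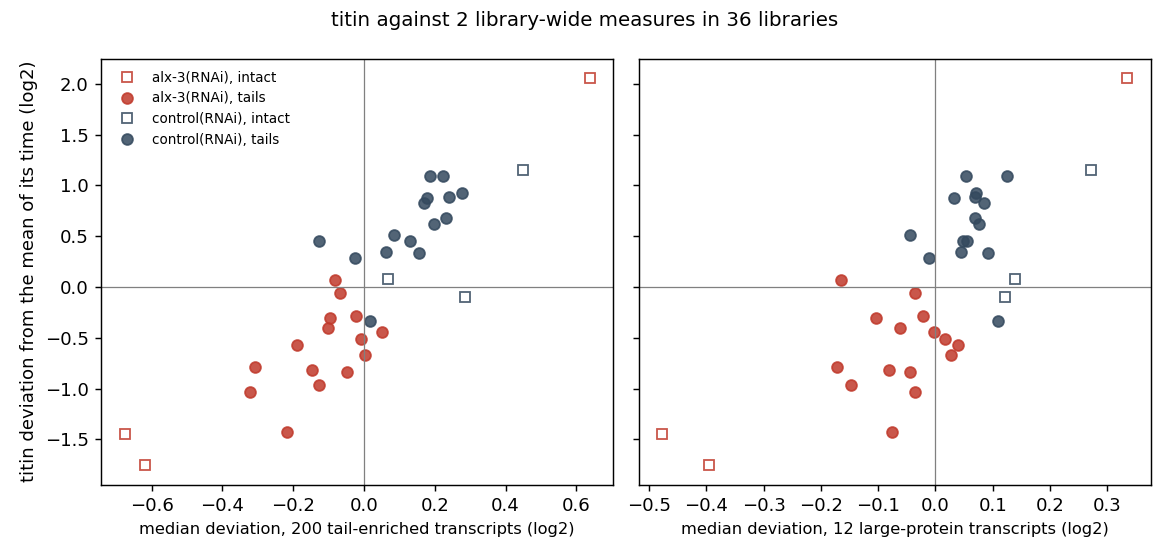
Deviation of *titin* from the mean of its time (log2, vertical axis) against the median deviation of 200 tail-enriched transcripts (left) and of 12 transcripts of large-protein genes (right) in the 36 libraries. *alx-3(RNAi)* is red and *control(RNAi)* dark grey, filled circles are tails and open squares intact animals. The 3 intact knockdown libraries sit at the extremes of both panels, 1 high and 2 low, and the tail libraries span a narrow range on the right.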

How the data were processed

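Poly(A)-selected RNA of 36 libraries was sequenced as 50 bp paired reads. After trimming (Trimmomatic 0.39), the authors quantified transcripts of the Smed_ASXL transcriptome (Salmon 1.4.0) and normalized each time point on its own (DESeq2 1.30.1). The signal values the authors deposited are these normalized counts, although the tables are headed RPKM, since row averages match the mean normalized count in the authors' own results. Whole reads could not be recovered, so no count model was fitted. The authors' fold changes and p-values were not used. The smallest values above 0 lay between 0.842 and 1.28 per library, so 1 read is worth about 1 normalized count.

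Values were taken as log2(normalized count + 1) and groups compared within a time point by limma 3.58.1 (R 4.3.3, trend, two-sided), over transcripts with at least 10 in at least 3 of 6 libraries, with Benjamini-Hochberg adjustment and a threshold of 0.05. This was tested on simulated data. The 200 tail-enriched transcripts (picked on both RNAi groups, members left out) and the 12 large-protein genes (ATM, ATR, DNAPK, BRCA2, Huntington, NF1, kismet, dom-1, Notch-1, osa, Med12 and Ash1) were chosen after seeing the data, as were r values and a joint fit over the tail libraries alone. Common-scale levels used median-of-ratios factors.

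Named genes are *titin*, *LOXL2*, *alx-3* by its ID, members of the marker lists, and for *titin* and *LOXL2* the 5 named transcripts of highest and 3 of lowest r; NF1 and Med12 as examples of large-protein genes were chosen after their values were seen. Members and lists were chosen with earlier results of these data known. The paper describes the sequencing as done in biological triplicates. The labels do not say whether libraries came from separate animals or cultures, so p-values measure the spread between libraries. Gene names are those in 271 IDs.

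Alternatives were a pseudocount of 0.5 or 5, rescaling to one total, quantile normalization, a joint fit, a replicate block, no filter, a minimum mean of 50, and omission of each library in turn.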

Additional observations from a re-analysis of the deposited data

How the results depend on the processing

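The log2 differences of *titin* and *LOXL2* kept their sign at all 6 times under every alternative run, and *titin* moved by less than 1 SD between libraries in each. Ranges on leaving out each library in turn were, for *titin*, −1.98 to −0.07 in intact animals, −1.30 to −1.03 at 0.5 HPA, −1.76 to −1.18 at 6 HPA, −1.68 to −1.20 at 24 HPA, −1.18 to −0.46 at 48 HPA and −1.32 to −0.93 at 72 HPA. For *LOXL2* they were 0.24 to 0.44, 0.37 to 0.60, 0.49 to 0.73, 0.64 to 0.84, 0.55 to 0.70 and 0.36 to 0.45. Rescaling to one total moved *LOXL2* to 0.48 at 48 HPA and 0.20 at 72 HPA, and quantile normalization moved it to 0.26 at 72 HPA. Rescaling to one total also put the median of all transcripts at −0.12, −0.15 and −0.20 at 6, 48 and 72 HPA, so relative to that median *LOXL2* hardly moved. The control course of *titin* and *LOXL2* moved by less than 1 SD under each alternative. 

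Counts over all transcripts depended on the scaling and on single libraries. At 72 HPA 80.0% of 4371 calls were higher, against 21.1% of 5070 with rescaling to one total and 52.2% of 3496 with quantile normalization. The share higher with rescaling to one total was 27.9%, 20.4%, 31.0%, 31.5% and 24.3% in intact animals and at 0.5, 6, 24 and 48 HPA, against 43.4%, 60.9%, 73.5%, 58.7% and 68.1%. Calls in intact animals numbered 288, and 79 to 5425 on leaving out 1 library. Replicate numbers did not pair libraries (r of same-numbered deviations −0.23 to 0.16). A replicate block left the log2 differences of *titin* at −1.52 and of *LOXL2* at 0.61 at 6 HPA, and gave 637 calls in intact animals and 1216 against 675 at 0.5 HPA. One fit over all 36 libraries gave 2348 calls in intact animals, 1612 against 769 at 6 HPA and 2723 against 1123 at 48 HPA, and left 0 of the matrix list called at 24 and 48 HPA.

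Group sizes of 3 libraries, levels near 10 normalized counts of *titin* in intact knockdown animals, and names taken from IDs limit these data.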
